A study of Mus musculus with 10 samples.

Results

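The genes described here are 10 that encode the mTOR complexes and the machinery through which amino acids reach them, read in livers of diabetic *db/db* mice. They were chosen by name and not by a cut on their values, although earlier results of these data were known. They are *Mtor*, *Rptor*, *Rictor*, *Mlst8*, *Tsc1*, *Tsc2*, *Rheb*, *Rraga*, *Slc38a9* and *Depdc5*. All 10 were among the 15126 protein-coding genes of the deposited table, each under 1 Ensembl identifier. The livers are the 5 of the AAV8-Control group, each sequenced as 1 RNA-seq library. Every mouse was a *db/db* mouse, which lacks the leptin receptor, was 10 weeks old and had received 5 weeks before an adeno-associated virus 8 (AAV8) that encodes eGFP. The promoter of the vector is not given in the sources used here, and these livers include no lean mice and no mice without a vector. The labels call the material both liver and primary hepatocytes. All values are therefore levels in 1 condition, and what is compared is gene with gene and liver with liver.

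mTOR is a protein kinase that works in a pair of complexes. With Raptor (*Rptor*) it forms mTORC1, which drives protein and lipid synthesis and restrains autophagy when nutrients are plentiful, and with Rictor it forms mTORC2, which phosphorylates Akt and related kinases downstream of insulin. Amino acids bring mTORC1 to the lysosome through the Rag GTPases, where Rheb switches the kinase on, while TSC1 and TSC2 hold Rheb in its inactive state. Arginine is read by SLC38A9 inside the lysosome, and GATOR1, which contains DEPDC5, turns the Rags off. Much of this control acts on proteins, through binding and phosphorylation, so that a level of mRNA measures the supply of a component and not the activity of the pathway.

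Reads on genes numbered 19499795 to 35498596 per library, with a median of 20769191. Levels are given as CPM, reads scaled to a fixed total of reads on genes, and 1 read was worth 0.0282 to 0.0513 CPM. Each member had at least 152 reads in every library. The 6 hepatocyte markers summed to 95780 to 131117 CPM. Markers of other liver cells were present too, at 101 to 202 CPM for 6 Kupffer cell and macrophage genes, 105 to 199 CPM for 6 endothelial genes, 232 to 309 CPM for 6 stellate cell and fibroblast genes, and 33.5 to 53.9 CPM for 5 cholangiocyte genes. The 5 lymphocyte genes summed to 4.01 to 7.51 CPM. No marker was at 0 in any of the 5 libraries, so the libraries also held RNA of cells other than hepatocytes. In such bulk samples, fewer cells of a type and less RNA per cell cannot be told apart.

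**Figure D1:**
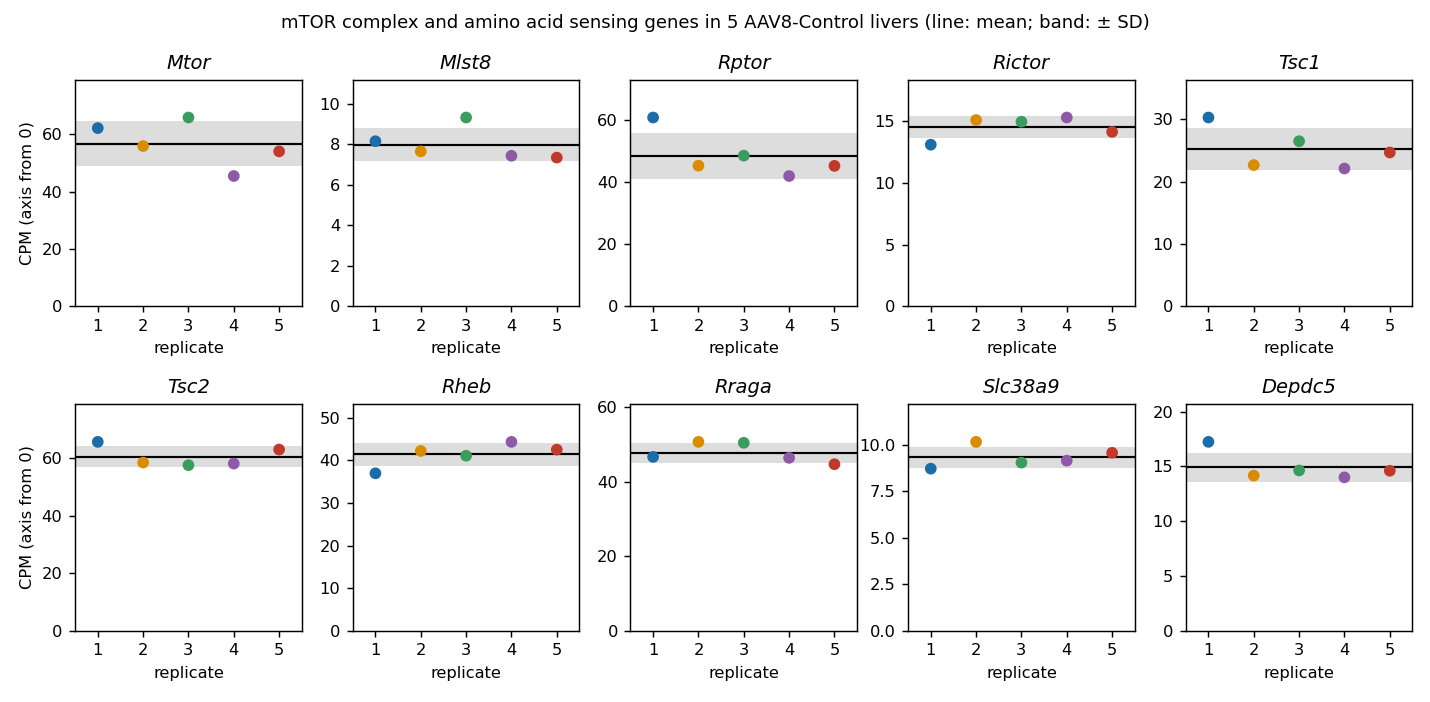
CPM of the 10 members in each of the 5 AAV8-Control livers, numbered by replicate, with each axis from 0; points are livers, the line is the mean and the band the SD. Replicate 1 is the highest liver for *Rptor*, *Tsc1*, *Tsc2* and *Depdc5* and the lowest for *Rictor*, *Rheb* and *Slc38a9*.

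The kinase and its shared subunit come first. *Mtor* (ENSMUSG00000028991, GRCm38 chr4:148448611-148557683, forward strand) was at 62.2, 55.9, 65.8, 45.5 and 54.0 CPM in replicates 1 to 5, with a mean of 56.7 ± 7.86 CPM (SD, n = 5 livers). Its highest liver was 1.45 times its lowest. *Mlst8*, the subunit that both complexes share, was at 8.15, 7.66, 9.32, 7.44 and 7.35 CPM, with a mean of 7.98 ± 0.812 CPM. Replicate 3 held the highest level of both genes. The ratio of *Mtor* to *Mlst8* CPM within a liver was 7.09 ± 0.582. *Mlst8* (ENSMUSG00000024142, chr17:24473551-24479078, reverse strand) shares 22.5% of its exon bases with *Bricd5*, and whether reads were counted by strand is not given in the sources used here. Its reads are therefore less certain than those of the other members.

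The subunits that set the complexes apart differed in level and in spread. *Rptor*, which defines mTORC1 and presents its substrates, was at 60.7, 45.2, 48.4, 41.9 and 45.1 CPM, with a mean of 48.3 ± 7.31 CPM. Replicate 1 lay above the other 4 livers, which ran from 41.9 to 48.4 CPM. *Rictor*, which defines mTORC2, was at 13.1, 15.1, 14.9, 15.3 and 14.1 CPM, with a mean of 14.5 ± 0.906 CPM, and here replicate 1 was the lowest liver. The ratio of *Rptor* to *Rictor* CPM was 4.64, 3, 3.24, 2.74 and 3.20, with a mean of 3.36 ± 0.739. *Rptor* thus took more reads than *Rictor* in every liver, and the ratio was 3.05 without replicate 1. Per kilobase of merged exons, *Rptor* was at 3.58 ± 0.543 and *Rictor* at 0.856 ± 0.0535 CPM, with no overlap between their ranges. *Rptor* (ENSMUSG00000025583) spans chr11:119602905-119899576 and *Rictor* (ENSMUSG00000050310) chr15:6708379-6800401, both on the forward strand. *Rictor* shares no exon base with another gene, and *Rptor* shares 0.624% of its exon bases with *Rptoros*.

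Of the brake on mTORC1, the catalytic partner was the more abundant. *Tsc2*, which carries the domain that inactivates Rheb, was at 65.6, 58.5, 57.6, 58.1 and 63.0 CPM, with a mean of 60.5 ± 3.58 CPM. *Tsc1*, the scaffold that stabilises it, was at 30.3, 22.7, 26.5, 22.1 and 24.7 CPM, with a mean of 25.3 ± 3.31 CPM. In CPM, replicate 1 was the highest liver for both. The ratio of *Tsc2* to *Tsc1* CPM was 2.17, 2.58, 2.17, 2.63 and 2.55, so that *Tsc2* was above *Tsc1* in every liver, at 2.42 ± 0.229 on average. *Tsc2* (ENSMUSG00000002496, chr17:24595816-24632630, reverse strand) shares 7.20% of its exon bases with *Pkd1*, its neighbour on the other strand. *Tsc1* (ENSMUSG00000026812) lies at chr2:28641228-28691167 on the forward strand and shares none.

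*Rheb*, the GTPase that activates mTORC1, was at 37.0, 42.2, 41.1, 44.4 and 42.5 CPM, with a mean of 41.4 ± 2.76 CPM. Replicate 1 was the lowest liver, and the other 4 lay between 41.1 and 44.4 CPM. Set against the gene whose product switches it off, the ratio of *Rheb* to *Tsc2* CPM was 0.688 ± 0.0763, with its lowest value of 0.563 in replicate 1. This ratio compares reads, not levels per length. Per kilobase *Rheb* was below *Tsc2* with merged exons (5.37 against 6.29) and above it with the principal transcript (23.2 against 9.66). *Rheb* (ENSMUSG00000028945) lies at chr5:24802823-24842624 on the reverse strand. Its relative *Rhebl1* was at 0.260 CPM on average, below the filter of 1 CPM.

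Among the members that sense amino acids, the Rag GTPase stood far above the other two. *Rraga*, which encodes RagA, was at 46.6, 50.7, 50.4, 46.4 and 44.7 CPM, with a mean of 47.7 ± 2.65 CPM. Its spread of 5.56% of the mean was the smallest of the 10 members over all 5 livers. *Rraga* (ENSMUSG00000070934) is a gene of a single exon at chr4:86575668-86577285 on the forward strand, and its 1618 bases share none with another gene. Its closest relative, *Rragb*, was at 0.158 CPM on average, so nearly all reads of this pair were assigned to *Rraga*.

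*Slc38a9*, the arginine sensor of the lysosomal membrane, was at 8.72, 10.2, 9.04, 9.15 and 9.57 CPM, with a mean of 9.33 ± 0.556 CPM. Its spread between livers, 5.96% of the mean, was no larger than the 6.75% that read counting alone gives at this depth. *Depdc5* of GATOR1 was at 17.2, 14.2, 14.6, 14.0 and 14.6 CPM, with a mean of 14.9 ± 1.32 CPM. Replicate 1 stood apart from the other 4 livers, which covered 14.0 to 14.6 CPM. The ratio of *Rraga* to *Depdc5* CPM was 3.22 ± 0.346 within a liver. *Slc38a9* (ENSMUSG00000047789) lies at chr13:112660751-112738749 and *Depdc5* (ENSMUSG00000037426) at chr5:32863701-32994236, both on the forward strand. *Slc38a9* shares 1.09% of its exon bases with *Gm47827*, and *Depdc5* shares none.

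Genes can be ordered by level only per length, so CPM was divided by the kilobases of a gene's merged exons. *Rraga* stood highest at 29.5 ± 1.64 CPM per kilobase, higher than 89.5% of the 11036 genes that had a length and averaged 1 CPM or more, whose median was 3.24. *Tsc2* followed at 6.29 ± 0.372, *Mtor* at 5.61 ± 0.778 and *Rheb* at 5.37 ± 0.357 CPM per kilobase. *Mtor* could not be placed firmly among these 3, since *Tsc2* was above *Mtor* in 4 of 5 livers and *Mtor* above *Rheb* in 3 of 5, with overlapping ranges, while the ranges of *Tsc2* and *Rheb* did not overlap. Next came *Rptor*, near the middle of all genes at the 52.8th percentile, and then *Tsc1* at 2.13 ± 0.280 and *Mlst8* at 1.80 ± 0.183 CPM per kilobase. The ranges of *Tsc1* and *Mlst8* overlapped, although *Tsc1* was the higher in 5 of 5 livers. The lowest levels were those of *Depdc5* at 1.27 ± 0.112, *Rictor* at 0.856 ± 0.0535 and *Slc38a9* at 0.558 ± 0.0333 CPM per kilobase, whose ranges did not touch. *Slc38a9* was higher than 11.3% of all genes. The members of the amino acid sensing branch thus held both the highest level of the 10, a Rag GTPase, and the lowest, an arginine sensor.

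**Figure D2:**
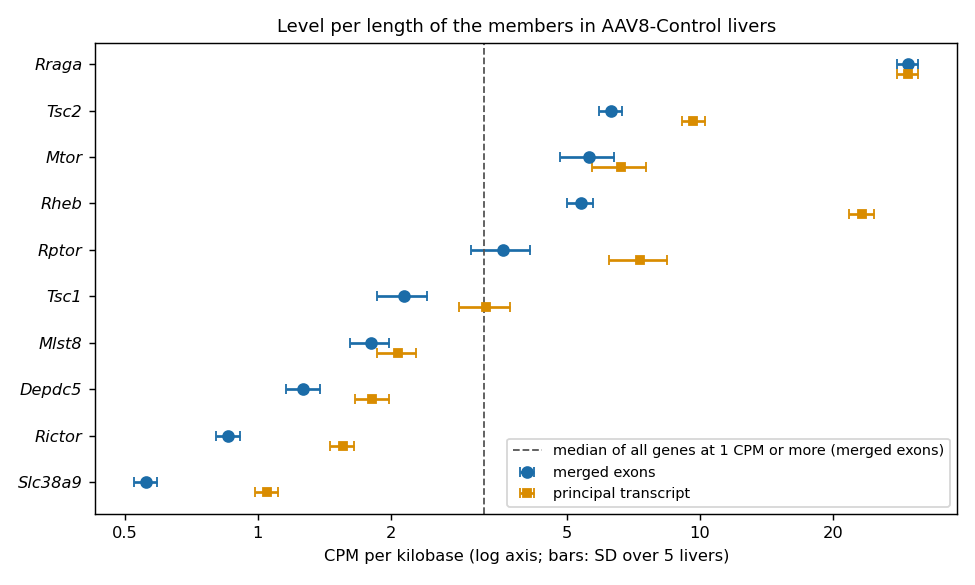
Mean level of the 10 members in CPM per kilobase on a log axis, with bars for the SD over 5 AAV8-Control livers, for merged exons (circles) and for the principal transcript (squares); the dashed line is the median of all genes of at least 1 CPM, 3.24 with merged exons. *Rraga* is the highest and *Slc38a9* the lowest with either length, and *Rheb* moves the furthest, from 5.37 to 23.2.

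The order depends on the length used. With the principal transcript, *Rheb* moved to 23.2 ± 1.54 CPM per kilobase, next to *Rraga* at 29.5, because its principal transcript has 1784 bases and its merged exons 7721. *Rptor* at 7.32 ± 1.11 then had a higher mean than *Mtor* at 6.62 ± 0.918, but their ranges overlapped, so no firm order is given. *Tsc2* was at 9.66. The other members kept their places relative to each other, down to *Rictor* at 1.56 and *Slc38a9* at 1.05. Which transcripts these livers made was not tested.

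The spread between livers was read beside that of all genes. Over the 11041 genes that averaged 1 CPM or more, the median SD was 10.6% of the mean, and 7.75% over the 10 members. *Rptor* at 15.1%, *Mtor* at 13.9% and *Tsc1* at 13.1% lay above that median of all genes, *Mlst8* at 10.2% lay near it, and the other 6 members, from *Rraga* at 5.56% to *Depdc5* at 8.85%, lay below it. With 5 livers, 1 of them weighs heavily in such a value. Without replicate 1 the spread of *Rptor* was 5.92%, that of *Tsc1* 8.35%, that of *Rheb* 3.18%, that of *Rictor* 3.43% and that of *Depdc5* 2.19%, with a median of 9.36% over all genes. *Mtor* was at 9.21% without replicate 4, *Mlst8* at 4.73% without replicate 3 and *Slc38a9* at 3.85% without replicate 2. Leaving out a gene's own extreme liver lowers its spread by construction, and did so by a median of 1.47 times over all 11041 genes, with 47.3% of them lowered by over 1.5 times. Over the 10 members the median was 1.70 times, with 8 lowered by over 1.5 times. Nothing particular to the members is read from these falls. Counting reads alone would give 2.64% for *Tsc2* and 7.36% for *Mlst8*, the ends of its range over the members. These are descriptions, since a gene with few reads varies more from counting alone.

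**Figure D3:**
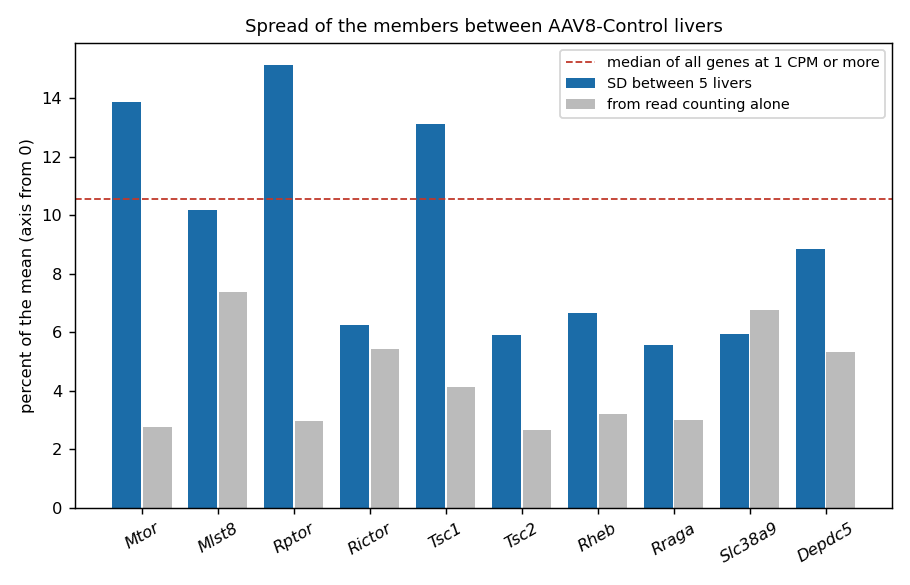
Spread of the 10 members over 5 AAV8-Control livers in percent of the mean, axis from 0; blue bars are the SD between livers and grey bars the spread that read counting alone gives, with the median of all genes of at least 1 CPM, 10.6%, as the dashed line. *Rptor*, *Mtor* and *Tsc1* are above the dashed line, with *Rptor* at 5.92% and *Tsc1* at 8.35% without replicate 1 and *Mtor* at 9.21% without replicate 4, and for *Slc38a9* the grey bar is the taller.

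The livers at the extremes differed from gene to gene. Replicate 1 was the highest liver for 4 members and the lowest for 3, and replicate 4 the highest for 2 and the lowest for 4. The size factor of replicate 1 was 1.05 relative to its total of reads, and those of the others ran from 0.970 to 1.001. The extremes are those with totals of reads and were not recounted with size factors. For *Tsc2*, dividing CPM by the size factors puts replicate 5 above replicate 1. The balance of long and short genes was read from median log2 deviations. That of 654 genes with merged exons of at least 12 kilobases minus that of 1294 genes under 2 kilobases was 0.030, -0.066, -0.015, 0.015 and 0.035 in replicates 1 to 5. The part of scaling and length in the members' spread was not tested.

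The wider pathway was read from 87 other genes written into lists by function, of which 83 averaged 1 CPM or more. Levels in these lists are per kilobase of merged exons unless the principal transcript is named. Their median level was 5.20 CPM per kilobase, against 2.86 for the members and 3.24 for all genes. The other Rag GTPases and the Ragulator, which anchors the Rags at the lysosome, had a median of 12.2 over 7 genes, with *Lamtor2* at 50.8 ± 3.53 CPM per kilobase and the Rag GTPase *Rragd* at 0.251 ± 0.0505. The proton pump of the lysosome, which takes part in amino acid sensing, had a median of 10.2 over 15 genes, from *Atp6v1c1* at 5.08 ± 0.432 to *Atp6v0d1* at 41.1 ± 2.26. With the principal transcript both ends changed, to *Atp6ap2* at 8.93 and *Atp6v1e1* at 53.5. All 15 pump genes were above 6 of the 10 members with merged exons and above 7 with the principal transcript.

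The inhibitory arm depended on the length used. The 6 other genes of GATOR1 and KICSTOR had a median of 1.93 CPM per kilobase, or 4.48 with the principal transcript, with the GATOR1 subunit *Nprl2* at 6.93 ± 0.560. GATOR2, which opposes GATOR1, had a median of 5.13 over 5 genes and was led by *Sec13* at 17.6 ± 1.25, a protein also of secretory vesicle coats. The amino acid sensors and the folliculin complex had a median of 2.90 over 10 genes, with the leucyl-tRNA synthetase *Lars* at 5.20 ± 0.543 and folliculin, *Flcn*, at 5.09 ± 0.248, whose ranges overlapped. The 5 lysosomal amino acid carriers had a median of 4.47, led by *Slc36a1* at 6.00 ± 0.542. *Slc38a7* at 5.98 was level with it, and with the principal transcript *Slc15a4* led at 8.69. *Slc36a4* was the lowest of these carriers at 1.02 ± 0.128, above *Slc38a9* at 0.558, but with the principal transcript both lay at 1.02 and 1.05, so that no order between them can be given.

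The regulators and substrates of the complexes spanned a wide range. Kinases and inhibitors upstream of TSC had a median of 6.56 CPM per kilobase over 10 genes, with *Stk11*, the kinase that activates AMPK, at 12.3 ± 1.82. Substrates and effectors of mTORC1 had a median of 12.0 over 12 genes, with the translation factor *Eif4b* at 35.4 ± 2.19 and the adaptor *Grb10* at 0.305 ± 0.0374. Outputs of mTORC2 other than Akt (*Sgk1*, *Sgk2*, *Sgk3*, *Prkca* and *Ndrg1*) had a median of 2.77 over 5 genes. They lay between the kinases *Sgk3* at 0.537 ± 0.0552 and *Sgk2* at 25.02 ± 4.65. The 7 other subunits and assembly factors of the mTOR complexes had a median of 3.94 and ran from *Telo2* at 0.604 ± 0.0811 to *Akt1s1*, which encodes the mTORC1 inhibitor PRAS40, at 17.3 ± 2.28, level with the mTOR inhibitor *Deptor* at 17.3, although with the principal transcript they were at 29.3 and 17.9. *Tbc1d7*, the third subunit of the TSC complex, was at 3.12 ± 0.212, between *Tsc1* and *Tsc2*, but at 10.1 with the principal transcript, where *Tsc2* was at 9.66 and *Tsc1* at 3.28. *Rragb*, *Rhebl1*, *Prr5l* and *Rps6* were below 1 CPM, and for *Rps6* 43.8% of the 50-base stretches of its transcripts also occur in other genes, pseudogenes among them. For the other genes of these lists such stretches were not checked.

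**Figure D4:**
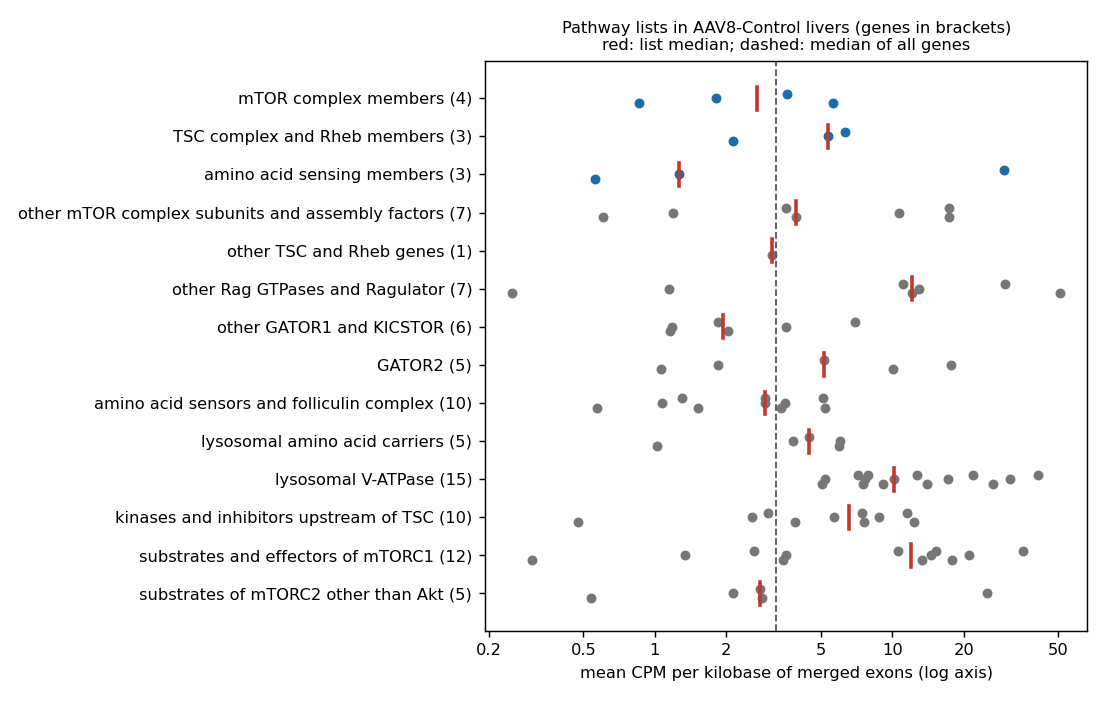
Mean CPM per kilobase of merged exons, on a log axis, of each gene of at least 1 CPM in the member groups (blue) and the other pathway lists (grey) in AAV8-Control livers; the red line is the median of the list and the dashed line that of all genes, 3.24. The Ragulator and Rag list, the proton pump and the mTORC1 substrates have the highest medians, 12.2, 10.2 and 12.0, with these lengths.

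The promoters of the 10 members, taken from RefSeq as 250 bases before and 50 after the start (GRCm38.p6), were searched on both strands for a few known motifs, and positions are counted from the RefSeq start. *Rictor* and *Tsc1* were the members with a YY1 motif, GCCATNTTG, which 2.51% of all 32851 promoters hold. The motif lies 19 to 27 bases after the start of *Rictor* and 21 to 29 bases after that of *Tsc1*, in the transcribed part, and is read there from the other strand. *Rheb* was the member with an E-box, CACGTG, the core of the element that the TFEB family binds, 96 to 91 bases before its RefSeq start at base 24842361. The GENCODE gene starts 263 bases further upstream, at base 24842624, and from there the same E-box is 168 to 173 bases into the gene. That motif is in 7.15% of all promoters and in 16 of the 70 other pathway genes with a promoter in the table. Shares of all promoters here cover genes expressed in liver or not, while the pathway figures count genes, so they are not like for like. Base composition was not matched either. The longer palindrome TCACGTGA, which contains the E-box and is closer to the full TFEB element, was in no member, in 5 of those 70 genes and in 0.974% of all promoters. *Tsc2* was the member with a ZNF143 motif, 57 to 47 bases before its start, which 1.02% of promoters hold. No member had the amino acid response element TGATGNAAT, found in 0.965% of promoters, or the cyclic AMP element TGACGTCA, found in 1.79%. A match describes these letters, not a bound site. The 4 stretches are shown, 30 bases each, since they set apart the members that hold them, with the motif in capitals and each read 5′ to 3′ on the gene's strand.
Rictor, chr15:6708389-6708418, forward strand: tgaaacccgtCAATATGGCggcgatcggcc
Tsc1, chr2:28641243-28641272, forward strand: gctgcgcgtcCAAGATGGCggcgccctgta
Rheb, chr5:24842440-24842469, reverse strand: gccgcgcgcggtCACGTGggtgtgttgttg
Tsc2, chr17:24632664-24632693, reverse strand: gcacgcgaaACTACAATTCCcagagagctc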

How the data were processed

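Polyadenylated RNA of *db/db* livers was sequenced as single 50-base reads, one library per liver. Per the labels, the authors aligned reads with STAR (listed as version 2.0.4b) to GRCm38.p2 and counted them on genes with featureCounts 1.4.5; the deposited values are CPM, a step whose tool is not given in the sources used here. The table lists 15126 genes on 15236 lines, 110 of which repeat a gene with identical values. Dividing by the CPM of a single read gave whole reads for 100% of values (tolerance 0.01), with totals of 19499795 to 35498596 per library. No 2 libraries of the group were duplicates (lowest chi-square per degree of freedom 16.8).

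The 5 AAV8-Control libraries were used. The comparison with the other 5 libraries of the series, and the tests planned for it, are not reported here. Levels are means with SD over 5 livers, per kilobase of merged exons of GENCODE M21 (GRCm38) or of the principal transcript. Percentiles and medians over all genes used those with a mean of at least 1 CPM and are descriptions with no test. Promoters are from RefSeq. Computations used Python 3.11.15, pandas 2.3.3 and numpy 2.4.6. Of each pathway list, the highest gene per length was named by rule; the lowest genes, the genes that led or closed a list with the other length or tied with its leader, the genes below 1 CPM, 3 of the ratios (*Mtor* to *Mlst8*, *Rheb* to *Tsc2* and *Rraga* to *Depdc5*) and the motif searches were chosen after values were seen. Members and lists were chosen with earlier results of these data known. *Rps6kb2* was not analysed here. The protein sequences planned for paralogs were not used here.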

Additional observations from a re-analysis of the deposited data

Results flagged for a closer look

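Of the 10 members tested over 5 livers, 1 held a liver apart from the rest: *Depdc5* in AAV8-Control replicate 1, at 17.2 CPM against 14.0 to 14.6 CPM in the other 4 livers. Its gap to the nearest liver was 0.807 of the whole range, above Dixon's critical value of 0.71 for 5 values. Chance sets apart about 1 group in 20. The share of all genes that this rule sets apart was not computed, so nothing particular to the members is read from this count. In CPM the same liver had the highest *Rptor*, *Tsc1* and *Tsc2* and the lowest *Rictor*, *Rheb* and *Slc38a9*. For *Tsc2* replicate 5 was above it once CPM was divided by the size factors.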

How the results depend on the processing

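With each library left out in turn, the ratio of *Rptor* to *Rictor* ran from 3.05 to 3.52, *Tsc2* to *Tsc1* from 2.37 to 2.48, *Mtor* to *Mlst8* from 6.96 to 7.34, *Rheb* to *Tsc2* from 0.669 to 0.719 and *Rraga* to *Depdc5* from 3.13 to 3.35. A mean of 5 values moves by less than their SD when 1 is left out, whatever the values, so these ranges are no sign of stability. The spreads of *Rptor*, *Tsc1*, *Depdc5*, *Rheb*, *Rictor*, *Mlst8*, *Slc38a9* and *Mtor* each fell by over 1.5 times without their own extreme liver. That is 8 of 10 members, against 47.3% of all genes. The choice of liver builds such a fall in. Levels per length of the 10 members moved by less than their SD when size factors replaced the totals of reads. Those factors ran from 0.970 to 1.05, so a mean over the same 5 livers could hardly move, and this is no sign of stability either. The spread between livers was not recomputed with them. With the principal transcript's length 9 of 10 members moved by more than their SD, and *Rraga*, whose lengths are equal, did not. These alternatives were chosen after the data were seen. The alternatives planned for tests between groups (pseudocount, filter, scaling, other tests, blocking) were not run. No paired analysis was possible because a single group of livers is reported. With 1 read worth up to 0.0513 CPM, counting error limits *Slc38a9* and *Mlst8* most.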
